A study of Mus musculus with 8 samples.

Results

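The 7 genes described here, Clec4f, Lyz2, Csf1r, Cd68, Cd14, Cd5l and Mpeg1, are transcripts by which Kupffer cells, the macrophages that live in the sinusoids of the liver, are followed in RNA of whole liver. They were chosen by name, with earlier results of these arrays known, and no threshold on a measured value was used. Every probe set that the platform annotation gives to 1 of these symbols alone was taken, which made 11 of the 12422 probe sets that were not controls. The brightest set of each gene carried its level, and the other 4 sets served as a check. All 7 genes were on the array, and the brightest set of each passed the filter on low levels, as did 4810 genes in all. The livers came from 8 female Ames mice of normal phenotype, with 1 Affymetrix mouse U74Av2 array for each animal. Per the labels, each animal was either +/+ or +/df at the recessive Ames dwarf locus, without a statement of which, so carriers could not be set apart. All were fed 30% less pelleted diet than normal females with free access to food consumed, and all were killed at 24 to 26 months of age. The labels give this single group (n = 8) and no control group, so what can be asked is by how much each marker varied from animal to animal and whether the markers moved in step. Levels below are quantile-normalized signals in arbitrary units, as mean ± SD over the 8 arrays.

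Kupffer cells clear bacteria, particles and aged red cells from portal blood, and they depend on signals through the receptor that Csf1r encodes. Clec4f and Cd5l are the members closest to being particular to Kupffer cells within the mouse liver. Csf1r, Cd68 and Mpeg1 are shared with monocytes and other macrophages, and Lyz2 and Cd14 are shared with neutrophils as well. In RNA of whole tissue, fewer cells of a type and less RNA per cell cannot be told apart.

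Replicates 5 and 6 stood apart from the other arrays, and results are therefore given with and without them. The log2 ratio of the 3′ to the 5′ control set of Gapdh was 4.35 on replicate 5 and −0.24 to 0.33 on the other 7 arrays. The same ratio for pyruvate carboxylase reached 4.33 and 4.30 on replicates 5 and 6, and the rest had 1.42 to 2.76. Their median correlations with the other arrays were 0.881 and 0.943, where those of the remaining 6 were 0.962 to 0.974. The part of these differences in the results below was not tested beyond leaving the arrays out.

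The proximal promoters of 4 members are shown. No promoter of Csf1r or Cd14 was at hand, and of the remaining pairs Lyz2 and Mpeg1 had the highest r, 0.763. That pair did not pass the adjusted exact permutation test (adjusted p = 0.243), as given further on. Clec4f and Cd68 had negative r with both, which for Clec4f and Mpeg1 was only −0.0973. Each is the stretch of 250 bases before the annotated start, from RefSeq on build GRCm38.p6, written 5′ to 3′ on the strand of the gene. They lie at chr10:117282273-117282522 (minus strand) for Lyz2, chr19:12460520-12460769 (plus strand) for Mpeg1, chr6:83656117-83656366 (minus strand) for Clec4f and chr11:69666171-69666420 (minus strand) for Cd68. Capitals mark matches to GAGGAA or GGAAGT, purine-rich words of the kind bound by PU.1 (gene Spi1) and other ETS factors, searched on both strands, so that ACTTCC is GGAAGT read from the opposite strand.
Lyz2: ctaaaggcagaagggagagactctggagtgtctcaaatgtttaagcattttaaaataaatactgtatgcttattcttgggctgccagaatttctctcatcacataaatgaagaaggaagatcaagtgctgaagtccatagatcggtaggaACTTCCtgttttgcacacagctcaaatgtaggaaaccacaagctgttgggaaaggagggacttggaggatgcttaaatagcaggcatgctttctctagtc
Mpeg1: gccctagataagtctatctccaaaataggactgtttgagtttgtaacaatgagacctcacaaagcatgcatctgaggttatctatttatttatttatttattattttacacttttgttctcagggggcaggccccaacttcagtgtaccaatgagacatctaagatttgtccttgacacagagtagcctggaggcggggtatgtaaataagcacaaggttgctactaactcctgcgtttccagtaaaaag
Clec4f: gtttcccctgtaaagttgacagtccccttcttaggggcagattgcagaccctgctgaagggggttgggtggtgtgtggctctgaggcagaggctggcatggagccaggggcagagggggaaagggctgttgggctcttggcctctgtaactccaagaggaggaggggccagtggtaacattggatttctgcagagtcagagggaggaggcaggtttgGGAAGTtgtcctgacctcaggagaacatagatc
Cd68: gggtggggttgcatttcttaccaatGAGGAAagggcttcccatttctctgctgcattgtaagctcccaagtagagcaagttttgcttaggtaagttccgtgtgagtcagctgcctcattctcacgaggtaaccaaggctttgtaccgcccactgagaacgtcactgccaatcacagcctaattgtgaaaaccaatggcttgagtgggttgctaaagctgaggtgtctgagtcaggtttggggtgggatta
Of the 5 members that the promoter table held, 2 had GAGGAA (Cd68, and Cd5l on the opposite strand) and 2 had GGAAGT (Clec4f and Lyz2), and Mpeg1 had neither. GAGGAA was in 23.3% of the 32851 promoters of this length in the table and GGAAGT in 19.7%. At least 1 of the words was in 4 of the 5 members and in 36.7% of all promoters, a difference that was not tested. The words can overlap each other, and a match describes the letters in this window and not a bound site. Lyz2 and Mpeg1 thus did not share either word in these windows, and a link between the words and the correlations was not tested.

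The surface receptors, Clec4f, Csf1r and Cd14, each had their lowest and highest values on different arrays. Clec4f, a C-type lectin that binds galactose-bearing glycans, had a signal of 1432 ± 194, with a lowest value of 1079, a median of 1429 and a highest of 1781. The lowest array was replicate 2 and the highest replicate 6, and the other 6 arrays lay between 1368 and 1504. Clec4f thus differed between animals mainly through 1 array at each end, and the ratio of highest to lowest was 1.65, or 1.39 without replicates 5 and 6.

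Csf1r, the receptor tyrosine kinase for the macrophage growth factors CSF1 and IL34, had a signal of 783 ± 126. Its lowest value was 559, its median 770.4 and its highest 933. The lowest array was replicate 7, and replicates 5 and 4 (918) were the highest, so the high end did not rest on replicate 5. The ratio of highest to lowest was 1.67, or 1.64 without replicates 5 and 6. A second, dimmer set of Csf1r lay under the level filter at 52.3 to 139 and had its lowest value on replicate 5, where the brighter set was highest. Over the 8 arrays the 2 sets did not follow each other (r = −0.245, exact permutation p = 0.538; rho = 0.0238, exact p = 0.977), so each statement on Csf1r below holds for the brighter set alone.

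Cd14, the co-receptor that hands bacterial lipopolysaccharide to the Toll-like receptor complex, varied least among the members. Its signal was 370.4 ± 35.1, with a lowest value of 317 on replicate 1, a median of 363 and a highest of 420.4 on replicate 7. Replicates 5 (398) and 6 (369) lay inside the range of the others, and the ratio of 1.33 was the same without them.

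The members of lysosomes and phagosomes were Cd68 and Mpeg1, and they took opposite ends on replicate 5. Cd68, a heavily glycosylated protein of the lysosomal membrane in macrophages, had a signal of 399 ± 45.8, with a lowest value of 333 on replicate 5, a median of 405 and a highest of 464 on replicate 3. Replicate 6 was next to lowest at 352, so Cd68 was lowest on the 2 arrays with raised 3′ to 5′ ratios and 369 to 464 on the others. Mpeg1, which encodes the pore-forming protein perforin-2 that acts on engulfed bacteria, had a signal of 853 ± 273. Its lowest value was 640 on replicate 3, its median 736 and its highest 1477 on replicate 5. The next highest array was 925, on replicate 8, so replicate 5 lay well above the rest. Without replicates 5 and 6 the mean was 771 ± 122 (SD, n = 6), and the ratio of highest to lowest was 1.45 in place of 2.31. Each of the 2 genes had a further probe set, and both of these lay below the signal floor of 24.6 on all 8 arrays, so they gave no check.

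The secreted members were Lyz2 and Cd5l, and both were lowest on replicate 6. Lyz2, lysozyme M, which cleaves bacterial cell walls, had a signal of 399 ± 143 with a lowest value of 227, a median of 402 and a highest of 673. The low arrays were replicates 6 and 7 (232), the high array was replicate 5, and the other 5 lay between 346 and 471. It had the widest range of the members, 2.97-fold, and 2.03-fold without replicates 5 and 6. A second Lyz2 set was below the floor on 6 of 8 arrays. A further set, which the annotation gives to Lyz1 and Lyz2 together and which cannot be assigned to either, was lowest on the same 2 arrays, at 38.3 on replicate 7 and 133 on replicate 6, and lay between 275 and 378 on the others. It followed the Lyz2 set with r = 0.740 (exact permutation p = 0.0290; rho = 0.595, exact p = 0.132), and with r = 0.932 over the 6 arrays without replicates 5 and 6.

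Cd5l, the apoptosis inhibitor of macrophages that circulates bound to immunoglobulin M, had a signal of 700.3 ± 112, with a lowest value of 502, a median of 709.9 and a highest of 836. Replicate 6 was lowest and replicate 2 next at 602, and replicates 4 and 8 (832) were the highest. The ratio of highest to lowest was 1.67, or 1.39 without replicates 5 and 6. Clec4f and Cd5l, the 2 members closest to Kupffer cells alone, therefore had opposite extremes on replicate 6.

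The arrays that held the members' extremes were set beside those of all kept genes. Replicate 5 held the highest value of 3 of 7 members (Lyz2, Csf1r and Mpeg1) and of 34.1% of kept genes, and the lowest value of 1 (Cd68) and of 28.3%. Replicate 6 held the highest of 1 member (Clec4f) against 18.8% and the lowest of 2 (Lyz2 and Cd5l) against 16.6%. These 2 arrays thus held many of the extremes of members and of other genes alike. Replicate 7 held the highest of Cd14 (12.3% of kept genes) and the lowest of Csf1r (12.1%), and replicate 3 the highest of Cd68 (7.32%) and the lowest of Mpeg1 (9.02%). Replicate 4 held the highest of Cd5l (8.30%) and the lowest of none (10.5%). Replicate 2 held the lowest of Clec4f (10.1%) and the highest of none (7.05%), and replicate 1 the lowest of Cd14 (5.49%) and the highest of none (6.05%). No member had an extreme on replicate 8, which held the highest value of 6.13% and the lowest of 7.96% of kept genes.

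**Figure D1:**
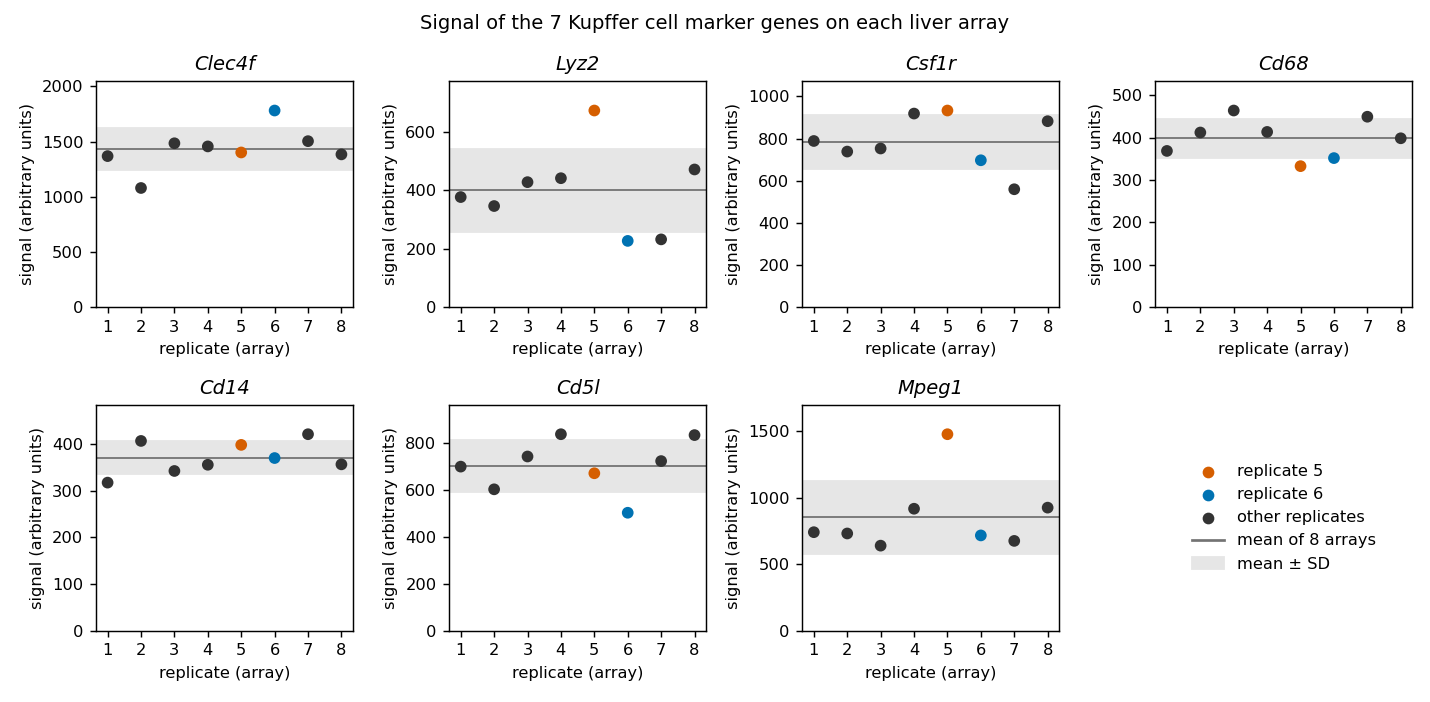
Signal in arbitrary units (y axis, linear from 0) of the brightest probe set of each member on the 8 arrays (x axis), with the mean and SD over arrays as line and grey band; replicates 5 and 6 are coloured. Lyz2, Csf1r and Mpeg1 were highest on replicate 5, while Clec4f was highest and Lyz2 and Cd5l lowest on replicate 6.

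The spread of each member over the animals was then set against transcripts of like level. By a variance test built on limma's prior variance, with Benjamini-Hochberg adjustment over all 6211 kept probe sets, 0 of 7 members passed. Unadjusted, 0 of 7 had a p under 0.05. The background was 0% of kept probe sets adjusted and 5.67% unadjusted. Counted by gene it was 233 of 4810 unadjusted, so the members' counts did not stand apart from the background. Because no kept probe set passed, the adjusted count cannot tell steady members from variable ones. Even C1qa, a macrophage gene described below, had a log2 ratio of 4.98 with an unadjusted p of 0.00232 and an adjusted p of 0.842. Lyz2 came nearest, with a variance above that of like level by 1.83 on the log2 scale (unadjusted p = 0.118, adjusted p = 0.988), followed by Mpeg1 at 1.26 (unadjusted p = 0.207, adjusted p = 0.988). Without replicate 5 the value for Mpeg1 was 0.24, and without both replicates 5 and 6 it was 0.75, with 1.68 for Lyz2. Csf1r (−0.10), Cd5l (−0.13) and Clec4f (−0.61) lay near the variance of like level. Cd68 (−1.45) and Cd14 (−2.05) lay below it. The ratio was above 0 for 2 of 7 members, against 52.6% of kept genes, and the members' median of −0.13 stood beside a median of 0.09 over all kept genes. The highest array exceeded the lowest by over 2-fold for Lyz2 and Mpeg1, 2 of 7 members against 37.2% of kept genes. Without replicates 5 and 6 the values were 0.29 for Clec4f, 1.12 for Csf1r and 0.071 for Cd5l, on the other side of 0.

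**Figure D2:**
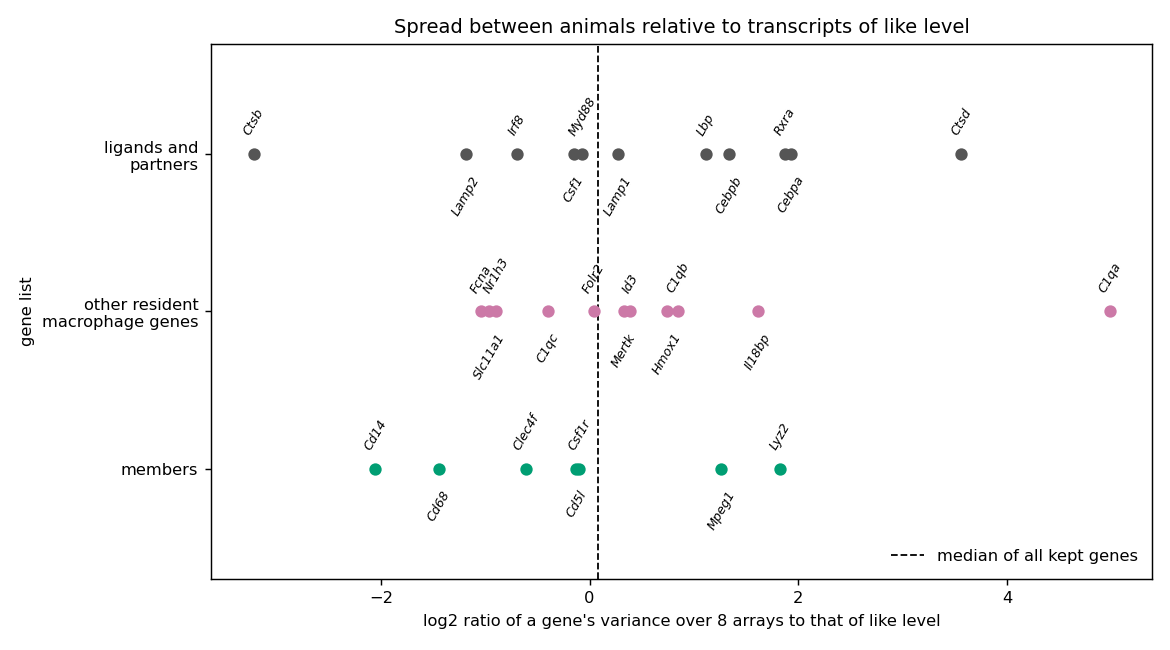
Log2 ratio of each gene's variance over 8 arrays to that of transcripts of like level (x axis), for the 7 members, the 11 kept genes of the other resident macrophage list and the 11 kept genes of the list of ligands and partners (y axis). The dashed line is the median of all kept genes (0.09); members ran from −2.05 for Cd14 to 1.83 for Lyz2, and C1qa was at 4.98.

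The correlations between members had both signs. Of their 21 pairs, 9 had a positive and 12 a negative Pearson correlation of log2 signals over the 8 arrays, with a median of −0.157 and a range from −0.646 to 0.870. By the exact two-sided permutation test, 0 of 21 pairs passed after Benjamini-Hochberg adjustment and 3 passed unadjusted, and with Spearman's rho 1 passed adjusted and 3 unadjusted. A correlation over 0.7 was found in 3 of 21 pairs, and in 7.998% of all pairs of kept genes. Without replicates 5 and 6 it was again 3 of 21, against 7.22%.

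Over all 8 arrays the 3 pairs were those among Lyz2, Csf1r and Mpeg1, and without replicates 5 and 6 they were Lyz2 with Csf1r, Csf1r with Mpeg1 and Clec4f with Cd5l. Lyz2 and Csf1r had r = 0.870 (exact permutation p = 0.00469, adjusted p = 0.0984) and rho = 0.929 (exact p = 0.00223, adjusted p = 0.0469). For this pair r was 0.777 without replicates 6 and 7, the arrays farthest from the median of Lyz2, and 0.942 over the 6 arrays without replicates 5 and 6 (exact p = 0.0125, adjusted p = 0.263). With the mean over all sets of a gene in place of the brightest it was −0.345, and for Csf1r and Mpeg1 −0.190, values that include the dim second Csf1r set. Lyz2 and Mpeg1 had r = 0.763 (exact permutation p = 0.0231, adjusted p = 0.243) and rho = 0.738 (exact p = 0.0458, adjusted p = 0.321). Here r was 0.891 without replicates 6 and 7 and 0.564 without replicates 5 and 6 (exact p = 0.224). Csf1r and Mpeg1 had r = 0.723 (exact permutation p = 0.0456, adjusted p = 0.319) and rho = 0.833 (exact p = 0.0154, adjusted p = 0.162), with r = 0.865 without replicates 5 and 7 and 0.757 without replicates 5 and 6 (exact p = 0.0569). Replicate 5 was the highest array for all 3 genes, and replicate 7 was lowest or next to lowest for all 3. Leaving out replicate 3 brought Lyz2 and Mpeg1 past the adjusted threshold (r = 0.888, exact adjusted p = 0.0167), and leaving out replicate 6 did so for Lyz2 and Csf1r (r = 0.912, exact adjusted p = 0.0458).

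Clec4f had a negative correlation with each of the other 6 members over all arrays, from −0.349 with Lyz2 to −0.0973 with Mpeg1, and none had an exact p under 0.05. Over the 6 arrays without replicates 5 and 6, 2 of the 6 were positive. With Cd5l the sign turned, from r = −0.176 (exact permutation p = 0.678) to 0.741 without replicates 5 and 6 (exact p = 0.0889). The value rested on replicates 2 and 6: r was 0.687 without replicate 6 alone, −0.785 without replicate 2 alone and −0.172 without replicate 5 alone. Without both replicates 2 and 6, the arrays farthest from the median of Clec4f, r was 0.0930. Without replicates 5 and 6, rho was 0.486 (exact permutation p = 0.356). Cd68 and Mpeg1 had the most negative r of all pairs, −0.646 (exact permutation p = 0.0777, adjusted p = 0.408), with rho = −0.643 (exact p = 0.0962), and −0.531 without replicates 5 and 6, which were also the arrays farthest from the median of Cd68. For this pair r was −0.294 without replicate 5 alone (exact p = 0.5258) and −0.823 without replicate 6 alone (exact p = 0.0236), so its size moved with single arrays. Cd14 had r = −0.217 with Lyz2 and −0.398 with Csf1r over all arrays (exact p = 0.601 and 0.331), and −0.697 and −0.639 without replicates 5 and 6 (exact p = 0.119 and 0.171).

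**Figure D3:**
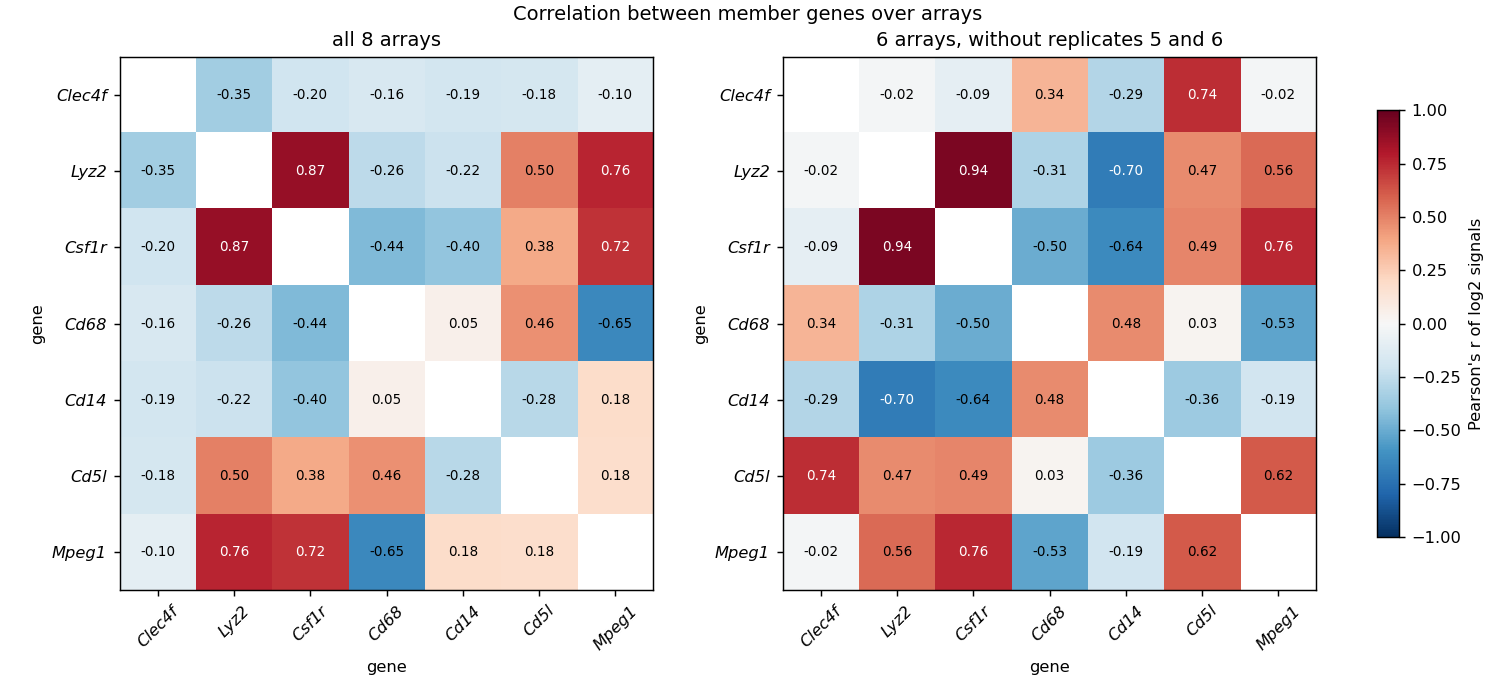
Pearson's r of log2 signals for each pair of members over all 8 arrays (left) and over 6 arrays without replicates 5 and 6 (right), with the value in each cell and colour from −1 to 1. Pairs among Lyz2, Csf1r and Mpeg1 stayed positive in both panels (0.564 to 0.942 on the right), while Clec4f and Cd5l went from −0.176 to 0.741.

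Ligands, signalling partners and regulators of the members were examined next, from a list of 21 genes of which 13 were on the array and 11 were kept. By the limma-based variance test 0 of 11 passed adjusted and 1 passed unadjusted, where 233 of 4810 kept genes passed unadjusted. That gene was the lysosomal protease Ctsd (log2 ratio 3.56, adjusted p = 0.842). Its signal was 764 on replicate 5 and at least 3100.1 elsewhere. Of the 11 genes, 6 were lowest on replicate 5, against 28.3% of all kept genes. Csf1, a ligand of the Csf1r receptor, was 286 ± 56.7, and the ligand gene Il34 was not analysed here. Lbp, the plasma protein that delivers lipopolysaccharide to CD14, was 1977 ± 598 and highest on replicate 6 (3394 against at most 2124 on the others), and the Toll-like receptor adaptor Myd88 was 265 ± 54.6. Cebpb, a regulator of acute phase and macrophage genes, was 2197 ± 611, and the lysosomal membrane protein Lamp1 was 7099 ± 958.

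For 8 pairs of a member with a textbook partner, chosen after the levels had been seen, 0 passed the exact permutation test after adjustment over the 8 and 1 passed unadjusted. That pair was Lyz2 and Cebpb, which went opposite ways (r = −0.853, exact permutation p = 0.00821, adjusted p = 0.0657; rho = −0.833, exact p = 0.0154). Its r was −0.883 without replicates 6 and 7 and −0.555 without replicates 5 and 6 (exact p = 0.237), and the pair passed adjusted without replicate 7 (r = −0.952, exact adjusted p = 0.0238). With the mean over all sets of a gene, which brings in the dim second Lyz2 set, r was −0.582 (exact permutation p = 0.152, adjusted p = 0.405). Csf1r and its ligand gene Csf1 had r = 0.640 (exact permutation p = 0.0810, adjusted p = 0.216; rho = 0.643, exact p = 0.0962) and 0.400 without replicates 5 and 7. Without replicate 8 that pair passed (r = 0.865, exact adjusted p = 0.0381). Csf1r and Spi1, which encodes PU.1, had r = 0.293 (exact permutation p = 0.489; rho = 0.190, exact p = 0.665) and 0.794 without replicates 5 and 6 (exact p = 0.0375, adjusted p = 0.300). Without replicate 5 alone it was 0.790. Over all 8 arrays, with the mean over all probe sets of a gene, which brings in the dim second Csf1r set under the level filter, r was 0.970 (exact adjusted p = 0.00139) in place of 0.293. Cd14 had r = 0.207 with Lbp (exact permutation p = 0.648) and 0.240 with Myd88 (exact p = 0.561). Cd5l, a known target of the oxysterol receptor LXR, had r = −0.168 with the receptor gene Nr1h3 (exact permutation p = 0.669) and 0.467 with its partner Rxra (exact p = 0.240), which was −0.171 without replicates 5 and 6. Cd68 and Lamp1 had r = 0.638 (exact permutation p = 0.0738; rho = 0.476, exact p = 0.243), and 0.624 without replicates 5 and 6. Its r was 0.264 without replicate 5 alone (exact p = 0.578) and 0.849 without replicate 6 alone.

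Among other genes of resident macrophages, those of complement C1q had their lowest values on replicate 5. Of 22 listed genes 16 were on the array and 11 were kept. By the limma-based variance test 0 of 11 passed adjusted and 1, C1qa, passed unadjusted (log2 ratio 4.98, adjusted p = 0.842). Among all 4810 kept genes 233 passed unadjusted. The 3 genes of complement C1q, which macrophages make in the liver, were all lowest on replicate 5. There C1qa was 80.0, and elsewhere it was 768 to 1557. C1qb was 319 against 515 to 680, and C1qc 948 against 1265 to 1524. The same array had the highest Lyz2, Csf1r and Mpeg1, so members and other listed genes lay at both ends on it. Of the 11 genes, 5 (C1qa, C1qb, C1qc, Nr1h3 and Hmox1) had their lowest value there, against 28.3% of all kept genes. Another 2, Fcna and Il18bp, had their highest there, against 34.1%. Which liver cells gave the Nr1h3 and Hmox1 signals was not tested. Il18bp, the binding protein of interleukin 18, took the same ends as Lyz2: replicate 5 had 393, replicates 6 and 7 had 132 and 165, and the other 5 arrays had 249.8 to 360.3. Slc11a1, a phagosomal metal transporter, was 222 ± 38.9, and Mertk, a receptor for apoptotic cells, was 326 ± 66.8. Marco, a scavenger receptor of Kupffer cells, and Spic, a factor of iron-handling macrophages, were below the floor on 6 and 7 of 8 arrays. Adgre1, which encodes the macrophage antigen F4/80, lay under the level filter at 40.9 to 157. The 16 genes summed to 5429 on replicate 5, their lowest, and to 8690.0 on replicate 4, their highest. The 7 members summed to 4314 on replicate 2, the lowest, and to 5884 on replicate 5, the highest.

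**Figure D4:**
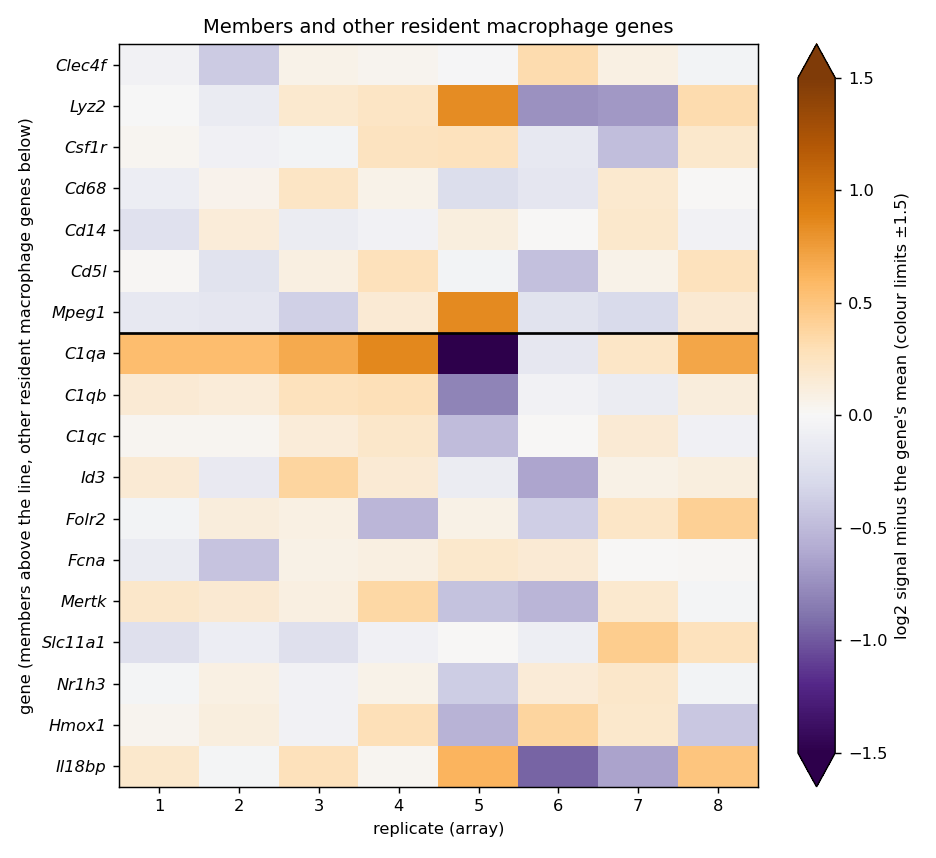
Log2 signal minus the gene's own mean on each array (x axis, replicates 1 to 8) for the 7 members (above the line) and the 11 kept genes of the other resident macrophage list (below it). Colours end at ±1.5, past which C1qa falls on replicate 5; that array holds the highest Lyz2, Csf1r and Mpeg1 and the lowest C1qa, C1qb and C1qc.

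Markers of neutrophils and of monocytes and recruited macrophages were mostly under the level filter. Those of dendritic cells and class II were not, with 7 of 8 measured genes kept. Their summed signal was lowest on replicate 6 (3296) and highest on replicate 4 (7921). Of 12 neutrophil markers 3 were kept: Csf3r at 855 ± 146, Elane at 212 ± 65.9 and Camp at 195 ± 76.3. The defining genes S100a8 and S100a9 were at most 96.6 and 83.7. The lowest and highest sums of the 12 were 1418 on replicate 2 and 2153 on replicate 7, where Lyz2 was low. Csf3r alone made 1139 of the sum on replicate 7. Of 8 measured genes of monocytes and recruited macrophages 3 were kept, and Itgam was below the floor on 6 of 8 arrays. Ccr2 was at most 89.6, and the sum was lowest on replicate 6 (1560.1) and highest on replicate 2 (2806), where Plac8 alone was 1642 against at most 895 elsewhere. Of 18 measured genes that myeloid cells or all leukocytes share, 8 were kept, and the summed signal was lowest on replicate 6 (3813) and highest on replicate 4 (5700.3). The protease Ctss, in that list, was highest on replicate 5 (1743) and lowest on replicate 7 (835), as Csf1r was, while Lcp1 was 1037 on replicate 5 and 1247 on replicate 7. Of the 8 kept genes of that list, 3 were lowest and 3 highest on replicate 5. Among all kept genes the shares were 28.3% and 34.1%, so these counts lay near the background. Endothelial markers (9 of 12 kept) were lowest on replicate 6 for 6 of 9, against 16.6% of all kept genes, and the mannose receptor Mrc1, which sinusoidal endothelium and macrophages both express, had signals of 889.7 and 234 on replicates 5 and 6 and of 251 to 483 elsewhere. Hepatocyte markers were bright on every array, with Alb at 31094 ± 749. Quantile normalization leaves the brightest sets little room to vary, and the deposited values of Alb ran from 26486 to 33738. The part of any of these cells in the members' values was not tested.

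Genes whose pattern over the 8 arrays was most like that of a member were sought among the 4809 other kept genes, as a description with no test, since the highest of so many values are picked. The genes with the highest r were Crtap (0.978) for Clec4f, Ces2g (0.969) for Lyz2, Plxnd1 (0.928) for Csf1r, Pgd (0.950) for Cd68, Dnaja1 (0.972) for Cd14, Gramd3 (0.914) for Cd5l and Reep6 (0.974) for Mpeg1. None of these, and none of the genes in second place, is on the lists of other resident macrophage, shared myeloid and monocyte genes. Those lists held only 11, 8 and 3 of the 4810 kept genes, so their absence here says little. The cytokine gene Il1a, outside those lists, was in second place for Csf1r (0.927). For a score of the 7 members, the mean of their log2 signals after each gene's mean was subtracted, the leading gene was Pgrmc1, at 0.958 over 8 arrays and 0.978 without replicates 5 and 6. The score itself was lowest on replicate 6 (−0.20) and highest on replicate 5 (0.25). On replicate 4, 6 of 7 members lay above their own mean, and on replicates 1, 2 and 6 it was 2 of 7, so no array was high or low for all members. No like share over all kept genes is given here, so these counts describe the members only.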

How the data were processed

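Liver RNA of 8 mice was measured on Affymetrix U74Av2 arrays. Per the labels, arrays were read on a Hewlett-Packard scanner and image analysis followed an earlier publication; which software and scaling were used is not given in the sources used here. What the authors deposited is a linear intensity for each probe set, with array medians between 132 and 166. Intensities of the 12422 probe sets that were not controls were quantile-normalized (limma 3.58.1, R 4.3.3), raised to a floor at the 20th percentile of the positive values, 24.6, and taken to log2; the 6211 with a mean above the median were kept. This gives all arrays 1 distribution, so a shift of most transcripts together would not be seen.

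The variance test was a 1-sided F test written for this report on limma's prior variance. It set each probe set's variance over the 8 arrays (7 residual degrees of freedom) against a robust prior that follows level (4.03 degrees of freedom). Benjamini-Hochberg adjustment was at 0.05. Correlations used exact two-sided permutation tests over the 40320 pairings of 8 arrays (720 for 6). No 2 arrays held identical values; the number of arrays limits the precision. The script was tested on simulated data. Symbols came from the platform annotation, and all 11 member sets had the same symbol in RefSeq (GRCm38.p6) by gene identifier. The labels number 1 mouse per array but do not describe the extraction, so the spread may be partly technical. The members and lists were chosen with earlier results of these data known. The named genes were the members, the 2 genes of most similar pattern for each and 5 for their score, every kept gene of the resident macrophage and partner lists, and the 2 brightest and 2 most variable of each other list; genes below the filter or floor, Spi1 and the shared lysozyme set were added after their values were seen. Alternatives were the deposited scaling, other floors, filters and probe set rules, a prior that was not robust, Spearman's rho and arrays left out.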

Additional observations from a re-analysis of the deposited data

Results flagged for a closer look

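Of 62 results checked, 18 had 1 array far from the other 7. Chance does this in about 1 in 20 unselected groups, which is no reference here, since many of these genes were picked for their spread and share the same arrays. For 10 of the 18 the array was replicate 5, for 6 replicate 6 and for 2 another. Among the members only Mpeg1 was of this kind, at 1477 on replicate 5 against at most 925 on the others. On replicate 5, the log2 3′ to 5′ ratio was 4.35 for Gapdh and 1.34 for β-actin, each above the other arrays. The same array lay far below the rest for C1qa (80.0), C1qb (319), C1qc (948), the oxysterol receptor gene Nr1h3 (1129), the lysosomal genes Ctsd (764) and Lamp1 (5063), and the regulator Cebpa (6571). On replicate 6, the low values were those of the lymphocyte antigen gene Cd52 (80.3), the actin-bundling gene Lcp1 (673), the matrix genes Col3a1 (66.3) and Dcn (2952), and the globin gene Hba-a1 (2395), while Lbp was high there (3394). Plac8 was high on replicate 2 (1642 against at most 895), and Alb was lowest on replicate 8 at 29720 in a range up to 31871. Quantile normalization leaves the brightest sets only a few possible values, so the narrow range of Alb and its flag may come from that step. As deposited, Alb ran from 26486 on replicate 8 to 33738 on replicate 3.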

How the results depend on the processing

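The count of members past the limma-based variance test stayed at 0 under all 16 alternatives, with adjusted p-values from 0.549 upward. No kept probe set of any gene passed under them either, so this count could hardly have moved. A filter at the 75th percentile, the mean over probe sets and leaving out shared-sequence sets kept only 4, 4 and 6 members. The count of member pairs past the correlation test was 0 under all alternatives but Spearman's rho (1 pair) and arrays left out in turn (0 to 1). Without a level filter the log2 variance ratios, then on another scale, were 2.47 for Clec4f, 2.93 for Csf1r, 1.57 for Cd68, 0.96 for Cd14 and 2.90 for Cd5l, above 0 in place of below. With replicates 5 and 6 left out before normalization they were 0.29 for Clec4f, 1.12 for Csf1r and 0.071 for Cd5l, and the correlations were 0.742 for Clec4f with Cd5l and −0.175 for Cd5l with Rxra. With the mean over probe sets the correlation was −0.345 for Lyz2 with Csf1r and −0.190 for Csf1r with Mpeg1. Leaving out each array in turn turned the sign for some results: the ratio ran from −1.93 to 0.50 for Clec4f, from −1.21 to 0.62 for Csf1r and from −1.08 to 0.88 for Cd5l. The correlation ran from −0.785 to 0.687 for Clec4f with Cd5l, from −0.465 to 0.123 for Cd5l with Nr1h3 and from −0.0525 to 0.790 for Csf1r with Spi1. The cause was not tested. The dim second sets, near or below the floor, limit the check of Lyz2, Cd68 and Mpeg1. No paired analysis was possible because the labels give 1 group.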
